A study of Mus musculus with 38 samples.

Results

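Synaptic and neuronal surface genes were followed through a retinoic acid time course in Neuro2A cells, a mouse neuroblastoma line that extends neurites when it differentiates. Members were all named probes whose gene symbol begins with a prefix of a fixed family list, such as Sv2, Syt, Unc13 and Dlg for the synapse, or Sema, Plxn, Pcdh and Unc5 for the cell surface. The rule used names and no measured value. It took 33 of the 473 named probes among 576 probes in all, of which 16 were synaptic and 17 were surface genes. Cells grew for 48 h in 10% serum, and RNA of 7 control arrays (0 h) was taken at that point. Treated cells then received medium with 2% serum and 20 uM all-trans-retinoic acid, and RNA was taken at 1 h (5 arrays), 3 h (5 arrays), 6 h, 12 h and 24 h (7 arrays each). Each replicate pooled 4 to 6 plates, and the labels do not say whether replicates came from separate cultures, so p-values measure only the spread between these arrays. No vehicle or medium control was used here, so retinoic acid, lower serum and time in culture cannot be told apart in any comparison with 0 h.

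Chemical synapses release transmitter when vesicles dock at the active zone, are primed, and fuse under the control of calcium sensors, after which clathrin-dependent endocytosis retrieves their membrane. Postsynaptic scaffolds anchor receptors opposite the release site, and adhesion proteins such as neuroligins bridge the cleft. Growing axons are steered before that by secreted and membrane-bound cues (semaphorins, slits, netrins) that act on plexins, robo proteins and Unc5 receptors, while protocadherins and immunoglobulin proteins sort contacts between cells.

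Of the 33 genes, 0 passed the limma test (Benjamini-Hochberg adjusted p under 0.05 over 576 probes) at any time. At 1, 3 and 12 h the share of all probes called was 0%, at 6 h it was 0.174% and at 24 h it was 1.04%. In the late against early contrast (12 and 24 h averaged, less the average of 1 and 3 h; called late minus early below), 0 members passed against 0.347% of all probes, and in the F test over the 5 times 0 members passed against 1.04%. The smallest adjusted p of any member was 0.356 by limma, for Sema6d in late minus early. Calls among members in that contrast depended on the processing. Tspoap1 and Pcdh10, 2 of 33, passed it on the values as deposited, where 13.5% of all probes passed. After median centring Pcdh10 passed, against 11.3% of all probes. With array quality weights Rimbp2 and Stxbp5 passed, against 28.8% of all probes. Each of these counts is a smaller share of the members than of all probes. At an unadjusted p under 0.05 the members taken were Pcdh19 at 1 h, Sema6d at 3 h, Tspoap1 and Astn1 at 6 h and Plxna2 at 24 h, with 0 members at 12 h, in late minus early and in the F test. Over all probes that threshold took 8, 31, 33, 23 and 39 probes in the order of the 5 times, 78 in late minus early and 37 in the F test. In bulk RNA, fewer cells expressing a gene and less RNA per cell cannot be told apart.

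The deposited intensities share a lowest value of 0.540, the floor, which 30 of the 38 arrays reach. For a probe at that value the true signal is bounded only from above. On every array 54.5% to 55.0% of probes lay below an intensity of 1, and that line serves here as a mark of level. Values below are log2 of quantile-normalised intensity, on which 0 is an intensity of about 1 and the floor lies near -0.80. Of the 8 arrays that stay above it, 4 belong to the 24 h group and 2 each to the 6 h and 12 h groups. Counts of arrays above or below the controls use the normalised values and can differ on the values as deposited. The interquartile range of log2 intensity on the arrays had medians, in time order, of 1.53 (0 h), 1.53, 1.67, 1.22, 1.29 and 0.885 (24 h). In 5 arrays, replicate 1 at 1 h, 3 h and 24 h, replicate 3 at 6 h and replicate 5 at 12 h, the median rank correlation with the other arrays was 0.593 to 0.698, against 0.739 to 0.860 in the other 33. The number of arrays limits the precision.

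Most of the 33 probes were dim. A member reached an intensity of 1 on a median of 5 arrays, against 21 arrays for the named probes. Of the members 7 (21.2%) never reached it, against 34 of 473 named probes (7.19%), and 6 (18.2%) sat at the lowest value on more than 50% of the arrays, against 23 named probes (4.86%). The synaptic genes reached 1 on a median of 9.5 arrays and the surface genes on a median of 4. Probes differ in brightness for reasons other than RNA amount, so these counts describe what the arrays could follow and not which gene was more abundant.

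Syt11, a synaptotagmin of vesicle and lysosomal membranes, was at or above 1 on all 38 arrays. Snap91, a clathrin adaptor of synaptic vesicle retrieval (AP180), reached it on 35 arrays. Stxbp5 (tomosyn), which binds syntaxin and restrains vesicle priming, and Synj1, the lipid phosphatase synaptojanin that uncoats endocytosed vesicles, each did so on 34. These 4 synaptic genes were the brightest of the members by this measure. Sv2a, a vesicle glycoprotein, reached 1 on 19 arrays, and its paralogue Sv2b on 0, with 26 arrays at the floor. Among surface genes Sema6d, a transmembrane semaphorin, came highest with 17 arrays, ahead of the plexin Plxna2 with 12 and of Astn1 and Plxnb2 with 11 each. Nlgn1, Sv2b and Tspoap1 among the synaptic genes, and Lrrtm2, Pcdh10, Pcdhga2 and Slit1 among the surface genes, never reached it. Lrrtm2, Pcdh19, Pcdhga2 and Tspoap1 lay at the floor on every control array, so their differences from 0 h rest on an upper limit.

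Among genes near the line, the number of arrays at or above 1 varied with time. Sv2a passed it on 5 of 7 arrays at 24 h and 2 of 7 controls, Sema6d on 4 of 5 arrays at 3 h and 1 of 7 controls, and Plxnb2 on 1 of 7 arrays at 24 h and 4 of 7 controls. No test was made of these counts.

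**Figure D1:**
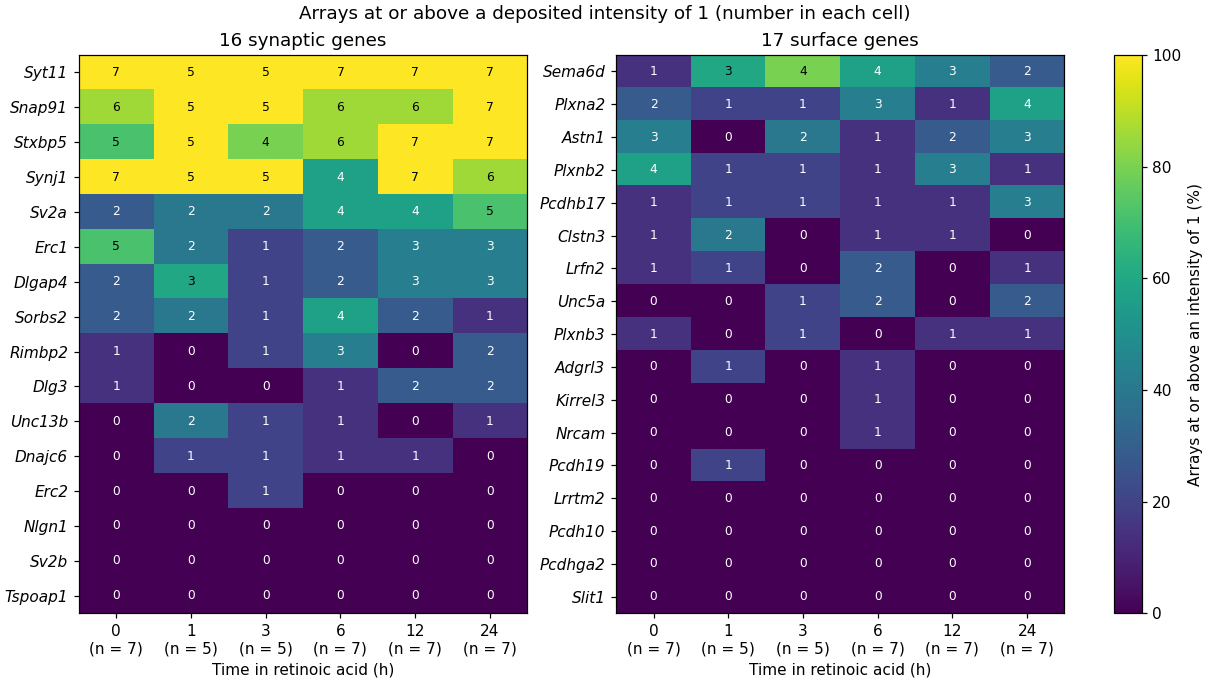
Number of arrays on which each of the 16 synaptic (left) and 17 surface genes (right) had a deposited intensity of 1 or more, by hours in retinoic acid (5 or 7 arrays a time); colour gives the percent of the group's arrays. Syt11 passes on every array, while Sv2b, Pcdhga2, Slit1 and Lrrtm2 never do.

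The list medians stayed near 0. Among synaptic genes the median log2 difference from 0 h was, in the order of the 5 times, 0.05, -0.00, 0.09, -0.00 and 0.10. For surface genes it was 0.05, 0.00, 0.03, -0.00 and 0.06 in that order. At 24 h, 12 synaptic genes were higher and 4 lower, and 12 surface genes were higher and 5 lower, while of the named probes 253 were higher and 220 lower and of all probes 276 and 300, with medians of 0.02 and -0.01. Genes with every control at the floor cannot show a fall of signal, and without those 3 the surface genes were 9 higher and 5 lower. These counts give direction only, since none of the genes passed the test. The surface median at 1 h turned to -0.04 both with array quality weights and without the arrays of low rank correlation. Differences between the group means made up a median of 10.0% of the variance of a member and 11.8% for the named probes. Group means differ through the spread of the arrays alone, so these shares are not the part due to time, which was not tested.

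The surface list shifts with the scaling. On the values as deposited the surface median was 0.20 after 6 h, 0.17 after 12 h and 0.28 by 24 h, with 15 genes higher and 2 lower at 24 h. All probes had a median of 0.09 at 24 h on that scale, and the named probes 0.01. With each array centred on its median the surface value at 24 h was 0.21 and the synaptic value 0.16, against 0.23 for the synaptic genes as deposited. All probes then had a median of 0.02 and the named probes -0.06. Dim genes sit at the floor on many early arrays and above it on the narrower 24 h arrays: the median number of members at the floor on an array was, in time order, 12 (0 h), 10, 13, 2, 8 and 0 (24 h). The part of the floor in the list medians was not tested. For 7 of the 33 members the direction at 24 h turned both on the values as deposited and after median centring: Syt11, Snap91, Sv2b, Erc2, Slit1, Lrfn2 and Adgrl3. Other 24 h differences kept their direction and were larger after median centring, among them Rimbp2 (0.23), Tspoap1 (0.25), Dnajc6 (0.26), Nlgn1 (0.23), Kirrel3 (0.44), Unc5a (0.33), Pcdh10 (0.28), Pcdh19 (0.21), Pcdhga2 (0.15) and Sema6d (0.15), with none passing the test. Astn1 at 24 h was -0.21 on that scale. Stxbp5 (0.04), Plxna2 (0.57), Sv2a (0.20) and Plxnb2 (-0.07) kept their direction and were smaller in size after median centring, also without a call.

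**Figure D2:**
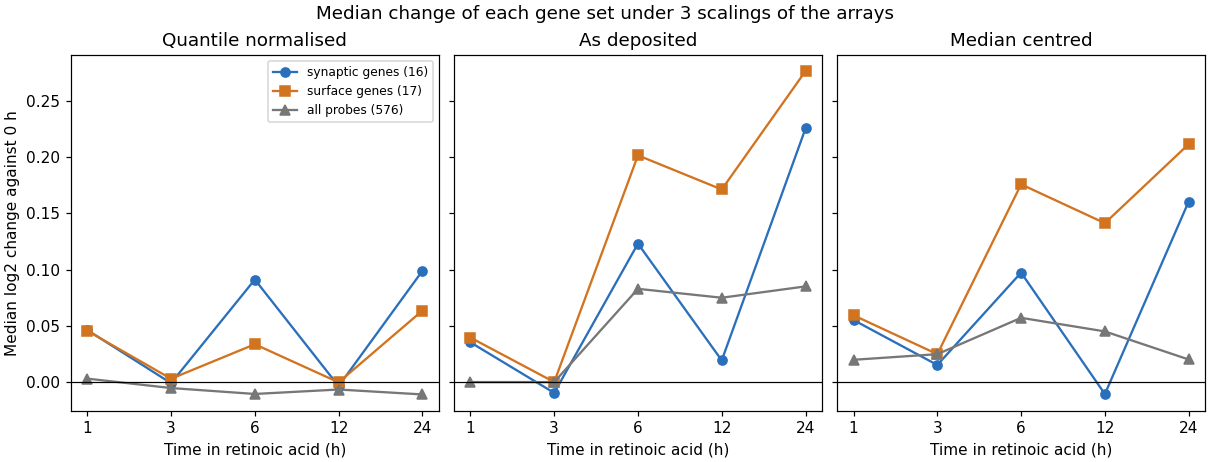
Median log2 difference from 0 h of synaptic genes, surface genes and all probes at each time, for quantile-normalised, deposited and median-centred intensity. The surface genes reach 0.28 at 24 h as deposited and 0.06 after quantile normalisation.

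Proteins of the active zone gave the synaptic gene with the smallest p of the F test. Rimbp2 joins RIM scaffolds to calcium channels at release sites. It was -0.13, -0.28, -0.12, -0.19 and -0.43 on the 1 h arrays, and -0.15, 0.13, -0.04, -0.27 and -0.21 on the 3 h arrays. By 6 h it ran from -0.67 through a median of -0.17 to 0.89, and at 12 h from -0.79 through -0.58 to -0.23. The 24 h arrays spanned -0.77, -0.42 and 0.26 (lowest, median, highest), against -0.81, -0.43 and 0.04 in controls. All 5 arrays at 3 h lay above the control mean but only 1 above the highest control, and the groups overlapped at every time. The difference was 0.27 ± 0.19 at 3 h (log2, SE) and 0.34 ± 0.17 at 6 h, with 0.09 ± 0.17 at 24 h (limma adjusted p = 0.824). Late minus early was -0.24 ± 0.13 (limma adjusted p = 0.359), and the F test gave an adjusted p of 0.854 by limma.

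Tspoap1 (RIM-BP1) is the other Rim-binding protein measured, and its controls all lay at the floor. On the 1 h and 3 h arrays it ranged only from -0.81 to -0.78, which is the floor itself. It ran from -0.82 to -0.39 on the 6 h arrays, from -0.81 to -0.65 at 12 h and from -0.81 to -0.55 on the 24 h arrays. Of the 24 h arrays 6 of 7 stood above the highest control, by amounts that leave the intensity close to the floor. The log2 difference was 0.10 ± 0.05 at 6 h and 0.07 ± 0.05 at 24 h (SE; limma adjusted p = 0.791 and 0.565), and 0.04 at 6 h without the 5 arrays of low rank correlation.

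The remaining active zone genes gave no call at any time. Erc1 and Erc2 (ELKS and CAST) are scaffolds that bind RIM and bassoon, and Unc13b (Munc13-2) primes vesicles for fusion. At 24 h their log2 differences were -0.09 ± 0.16, -0.11 ± 0.13 and 0.13 ± 0.28 (SE; limma adjusted p 0.824, 0.747 and 0.839), and Erc2 turned to 0.16 as deposited and 0.10 after median centring. For Erc1 and Unc13b median centring gave -0.17 and 0.23. Unc13b at 1 h was 0.39, -0.78, 1.39, -0.70 and -0.81, against -0.79, -0.53 and -0.14 (lowest, median, highest) in controls. High values on 2 of the 5 arrays give its difference of 0.43 ± 0.30 at 1 h.

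Vesicle proteins showed no called difference. Sv2a ranged from -0.22 to 0.18 on the 1 h arrays, from -0.51 to 0.24 at 3 h, from -0.32 to 0.82 on the 6 h arrays and from -0.65 to 0.23 at 12 h. At 24 h it was -0.60, 0.16 and 0.71 (lowest, median, highest), against -0.43, -0.06 and 0.53 in controls. 2 of the 7 arrays at 24 h exceeded the highest control and 1 lay below the lowest. As deposited Sv2a ran from 0.84 to 1.56 at 24 h and from 0.66 to 1.42 in controls. Its difference was 0.25 ± 0.18 at 6 h and 0.21 ± 0.18 at 24 h (log2, SE; limma adjusted p = 0.791 and 0.617). On the normalised scale Sv2b did not leave the floor region, with means between -0.81 and -0.79 in all 6 groups. Its highest deposited value was 0.862, on a 12 h array that never reaches the floor. The 24 h difference of Sv2b, -0.01, turned to 0.11 after median centring.

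Syt11 was 0.07, 1.15 and 1.86 (lowest, median, highest) at 24 h, against 0.48, 0.85 and 1.43 in controls. The 24 h arrays reached both below and above all controls. Its difference at 24 h was 0.28 ± 0.19 (log2, SE; limma adjusted p = 0.565), and 0.76 (adjusted p = 0.0525) without the 8 arrays that never reach the floor, which leaves 3 arrays at 24 h. It turned to -0.14 as deposited and -0.21 after median centring, so its direction is not settled. Stxbp5 was 0.11, 0.57 and 0.92 at 24 h, against -0.10, 0.17 and 0.99 in controls, a difference of 0.27 ± 0.16 (limma adjusted p = 0.565) with 6 of 7 arrays above the control mean, and 0.04 after median centring.

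Endocytosis genes were likewise within the spread. Dnajc6 is auxilin, the cofactor that lets Hsc70 strip clathrin from vesicles. It was -0.34, -0.45, -0.78, 0.10 and -0.10 at 1 h, and -0.29, 0.03, -0.05, -0.52 and -0.59 at 3 h. After 6 h it spanned -0.80, -0.67 and 0.33 (lowest, median, highest), at 12 h -0.81, -0.64 and 0.08, and at 24 h -0.74, -0.40 and -0.25, against -0.81, -0.79 and -0.10 in controls. All 5 arrays at 3 h were above the control mean, 2 of them above the highest control, and the groups overlapped. The difference was 0.33 ± 0.19 at 3 h and 0.10 ± 0.17 at 24 h (log2, SE; limma adjusted p = 0.949 and 0.801). Synj1 was -0.24 ± 0.29 at 24 h, and -0.57 after median centring. Snap91 was 0.13 ± 0.30 at 24 h and turned to -0.26 as deposited and -0.32 after median centring.

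Postsynaptic genes were few. Dlg3 (SAP102) is a membrane-associated scaffold of glutamate receptors. It was -0.01, -0.15, -0.78, -0.10 and -0.43 at 1 h, and -0.13, -0.48, -0.79, -0.79 and -0.67 at 3 h. At 6 h it spanned -0.70, -0.27 and 0.13 (lowest, median, highest), at 12 h -0.80, -0.29 and 0.67, and at 24 h -0.57, -0.23 and 0.59, against -0.79, -0.46 and 0.26 in controls. 1 array at 24 h passed the highest control, and 5 of 7 lay above the control mean. Its difference of 0.28 ± 0.20 at 24 h (log2, SE; limma adjusted p = 0.574) is within the spread of the arrays. Dlgap4, which links Dlg scaffolds to Shank proteins, was 0.22 ± 0.18 and the adhesion protein Nlgn1 0.03 ± 0.09 at 24 h.

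Sorbs2 entered by its prefix, although it is an adaptor of actin and focal adhesions and not specifically a synaptic protein. It was 0.68, -0.78, -0.78, -0.34 and 0.01 at 1 h, and 0.32, -0.39, -0.50, -0.60 and -0.19 at 3 h. By 6 h it ran from -0.57 through 0.03 to 0.95, at 12 h from -0.81 through -0.63 to 0.63, and at 24 h from -0.77 through -0.10 to 0.13, against -0.78, -0.19 and 0.07 in controls. Arrays at the 6 h and 12 h times lay above the highest control, 2 of 7 in each, and the groups overlapped. As deposited the highest Sorbs2 value was 1.85 at 6 h and 1.14 at 12 h, against 1.04 in controls. The difference was 0.39 ± 0.24 at 6 h and 0.09 ± 0.24 at 24 h (log2, SE; limma adjusted p = 0.791 and 0.873).

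**Figure D3:**
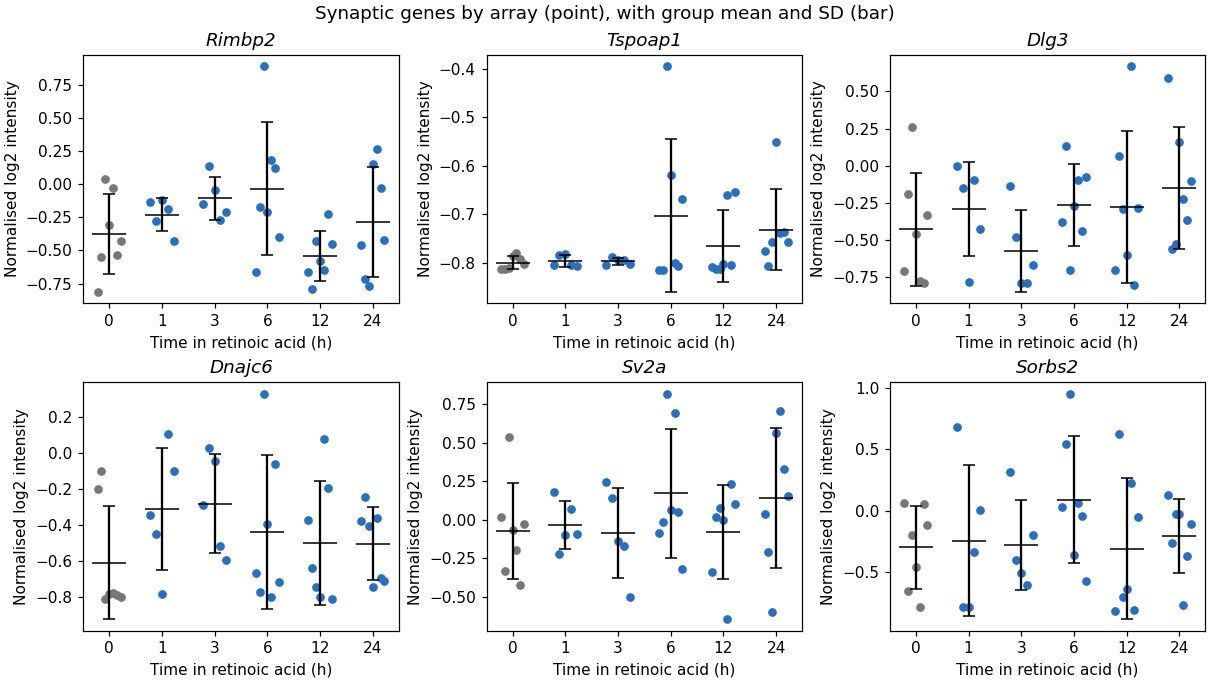
Normalised log2 intensity of Rimbp2, Tspoap1, Dlg3, Dnajc6, Sv2a and Sorbs2 on every array at 0, 1, 3, 6, 12 and 24 h; points are arrays, horizontal lines group means and error bars SD. Every treated group overlaps the controls, and the early Tspoap1 arrays lie on the floor.

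Guidance cues and their receptors were 6 of the 17 surface genes. Sema6d, whose protein signals through class A plexins, was 1.15, 0.32, -0.20, 0.15 and -0.81 at 1 h, and 2.04, 0.34, 0.46, 0.55 and -0.49 at 3 h. After 6 h it spanned -0.80, 0.13 and 0.79 (lowest, median, highest), at 12 h -0.73, -0.18 and 0.47, and at 24 h -0.71, -0.20 and 0.29, against -0.79, -0.37 and 1.08 in controls. Of the 3 h arrays 4 of 5 were above the control mean and 1 above the highest control. The difference at 3 h was 0.80 ± 0.36 (log2, SE; unadjusted p = 0.0339, limma adjusted p = 0.844). The value of 2.04 comes from one of the 5 arrays of low rank correlation, and without those arrays the difference was 0.43 (adjusted p = 0.929 by limma).

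Plxna2, a receptor for class 6 and class 3 semaphorin signals, was 0.60, -0.78, -0.78, -0.10 and -0.00 at 1 h, and 0.69, -0.16, -0.19, -0.79 and -0.61 at 3 h. At 6 h it ran from -0.73 through -0.30 to 0.90, and at 12 h from -0.80 through -0.31 to 0.27. The 24 h arrays were 1.51, 0.48, 0.08, 0.74, -0.21, -0.62 and -0.69, against -0.81, -0.78 and 0.59 (lowest, median, highest) in controls. 2 of the 24 h arrays exceeded the highest control, and 5 of 7 lay above the control mean. Its difference at 24 h was 0.63 ± 0.30 (log2, SE), 1.55-fold, with an unadjusted p of 0.0459 and a limma adjusted p of 0.565. The value of 1.51 is from an array of low rank correlation, and without those arrays the difference was 0.40 (adjusted p = 0.502 by limma). Without the 8 arrays that never reach the floor it was 1.25 (limma adjusted p = 0.121). That leaves 3 arrays at 24 h, the array at 1.51 among them. The plexins Plxnb2 and Plxnb3, receptors for class 4 and class 5 semaphorins, were -0.19 ± 0.22 and 0.08 ± 0.19 at 24 h, against -0.07 and 0.25 after median centring.

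Unc5a encodes a netrin receptor that mediates repulsion. It was -0.49, -0.20, -0.25, -0.69 and -0.56 at 1 h, and -0.41, -0.36, -0.44, -0.36 and 0.15 at 3 h. By 6 h it ran from -0.60 to 0.03, at 12 h from -0.81 to -0.10, and at 24 h from -0.58 through -0.33 to 0.76, against -0.49, -0.38 and -0.13 in controls. On this normalised scale 2 arrays at 24 h lay above all controls and 3 below all of them. As deposited Unc5a ran from 0.748 to 1.64 at 24 h, and its lowest control was 0.624, so no 24 h array lay below the controls there. The difference at 24 h was 0.22 ± 0.17 (log2, SE; limma adjusted p = 0.585), and 0.66 (adjusted p = 0.141) without the 8 arrays that never reach the floor, which leaves 3 arrays at 24 h. Slit1, a secreted cue for robo receptors, lay at the floor on 23 arrays. It had a difference of -0.05 ± 0.07 at 24 h that turned to 0.10 after median centring.

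Astn1, a membrane protein of neuronal migration along glia, had the smallest p among members at 6 h. It was -0.25, -0.17, -0.34, -0.06 and -0.61 at 1 h, and -0.46, -0.01, 0.19, 0.04 and -0.42 at 3 h. After 6 h it was -0.79, -0.78, -0.78, -0.80, 0.18, -0.15 and -0.14, against -0.61, -0.04 and 0.57 (lowest, median, highest) in controls. At 12 h it spanned -0.81, -0.41 and 0.18, and at 24 h -0.74, -0.05 and 0.42. Of the 6 h arrays 4 of 7 lay below the lowest control on this normalised scale. Replicates 1 and 2 are among these, but as deposited they stood at 0.705 and 0.857, above the lowest control at 0.653. Neither of these 2 arrays reaches the floor. The difference was -0.48 ± 0.20 at 6 h (log2, SE; unadjusted p = 0.0242, limma adjusted p = 0.633), -0.33 ± 0.20 at 12 h and -0.08 ± 0.20 at 24 h (limma adjusted p = 0.865).

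Immunoglobulin and leucine-rich proteins came next. Kirrel3 is an adhesion protein of synapse formation. It was -0.08, -0.78, -0.78, -0.81 and -0.81 at 1 h, and -0.16, -0.49, -0.51, -0.79 and -0.64 at 3 h. At 6 h it ran from -0.80 to 0.36, at 12 h from -0.81 to -0.60, and at 24 h from -0.80 through -0.53 to -0.03, against -0.81, -0.79 and -0.56 in controls. At 24 h 4 of 7 arrays lay above the highest control, a difference of 0.26 ± 0.14 (log2, SE; limma adjusted p = 0.565), and 0.24 without the 5 arrays of low rank correlation (unadjusted p = 0.0122, limma adjusted p = 0.270). Nrcam, an L1-family adhesion protein of axons, was 0.20 ± 0.13, and 0.44 after median centring. The synapse organisers Lrrtm2, Lrfn2 and Clstn3 were 0.09 ± 0.06, -0.17 ± 0.16 and 0.08 ± 0.19, and the latrophilin Adgrl3, a receptor for teneurins, was -0.10 ± 0.17. After median centring Lrrtm2 was 0.22, Clstn3 0.20, and Lrfn2 and Adgrl3 turned to 0.0082 and 0.077.

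Protocadherins give cells a combinatorial surface identity. Pcdh19 was -0.80, -0.78, -0.78, 0.05 and -0.81 at 1 h and between -0.81 and -0.79 on the 3 h arrays. By 6 h it ran from -0.81 to -0.70, at 12 h from -0.82 to -0.51 and at 24 h from -0.82 to -0.70, with all controls at the floor. A single array (0.05) stands behind the difference of 0.17 ± 0.08 at 1 h (log2, SE; unadjusted p = 0.0481, limma adjusted p = 0.988). At 24 h it was 0.05 ± 0.08. Pcdhb17 had a wide spread, with a highest value of 2.25 at 3 h on the same array that gave the highest Sema6d, and a difference of 0.37 ± 0.38 at 24 h. Pcdh10 and Pcdhga2 differed by 0.02 ± 0.08 and 0.02 ± 0.07. Members of the clustered protocadherins are close in sequence, so signal of Pcdhb17 and Pcdhga2 may include relatives.

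**Figure D4:**
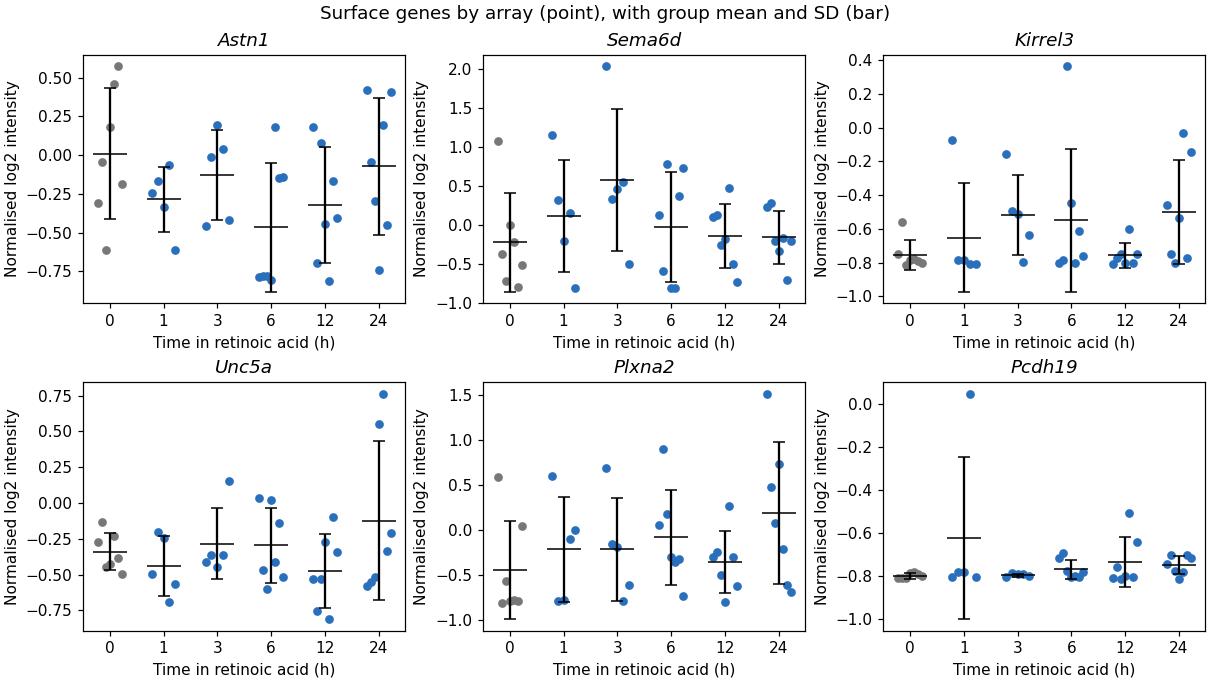
Normalised log2 intensity of Astn1, Sema6d, Kirrel3, Unc5a, Plxna2 and Pcdh19 on every array at 0, 1, 3, 6, 12 and 24 h; points are arrays, horizontal lines group means and error bars SD. The Sema6d array at 2.04 (3 h) and the Plxna2 array at 1.51 (24 h) stand above the rest of their groups.

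Some of the high values came from the arrays of low rank correlation, of which each treated time has 1. Of the 33 members 13, 16, 13, 10 and 10 had their highest value of the group on that array, in the order of the 5 times. That is 39.4%, 48.5%, 39.4%, 30.3% and 30.3% of members, against 31.5%, 33.8%, 20.5%, 22.6% and 27.1% of named probes. The part of these arrays in the members' differences was measured by leaving all 5 out, as given for Sema6d, Plxna2, Tspoap1 and Kirrel3. The highest 6 h values of Rimbp2, Sorbs2, Sv2a and Dnajc6 came from the 6 h array of low rank correlation. The highest Dlg3 values at 12 h and 24 h came from such arrays too, as did a high Unc13b value at 1 h. For these genes the differences at those times without the 5 arrays are not given here.

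The intervals bound what could have been missed within the quantile-normalised fit, and they do not cover the choice of scaling or of arrays. At 24 h the 95% interval of the log2 difference lay within 2-fold either way for 31 of 33 members, the exceptions being Pcdhb17 and Plxna2, and the median half-width was 0.35, or 1.28-fold. At 6 h and 12 h it did so for all 33. Sema6d and Unc13b reached 2-fold at 1 h, Pcdhb17 and Sema6d at 3 h. After median centring the interval lay within 2-fold for 33 members at 6 h, 32 at 12 h and 30 at 24 h. For dim genes such an interval describes the normalised intensity, which the floor compresses. In simulated 24 h data made on 576 probes, with 30 probes changed per fold size, the test called 87.8% of 2-fold changes and 55% of 1.5-fold changes. Changes of 1.5-fold could thus have been missed. These shares are over all probes, and the share for members at the floor was not tested. The measured 24 h arrays gave 6 calls among 576 probes, and the shares with so few probes changed were not tested either.

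**Figure D5:**
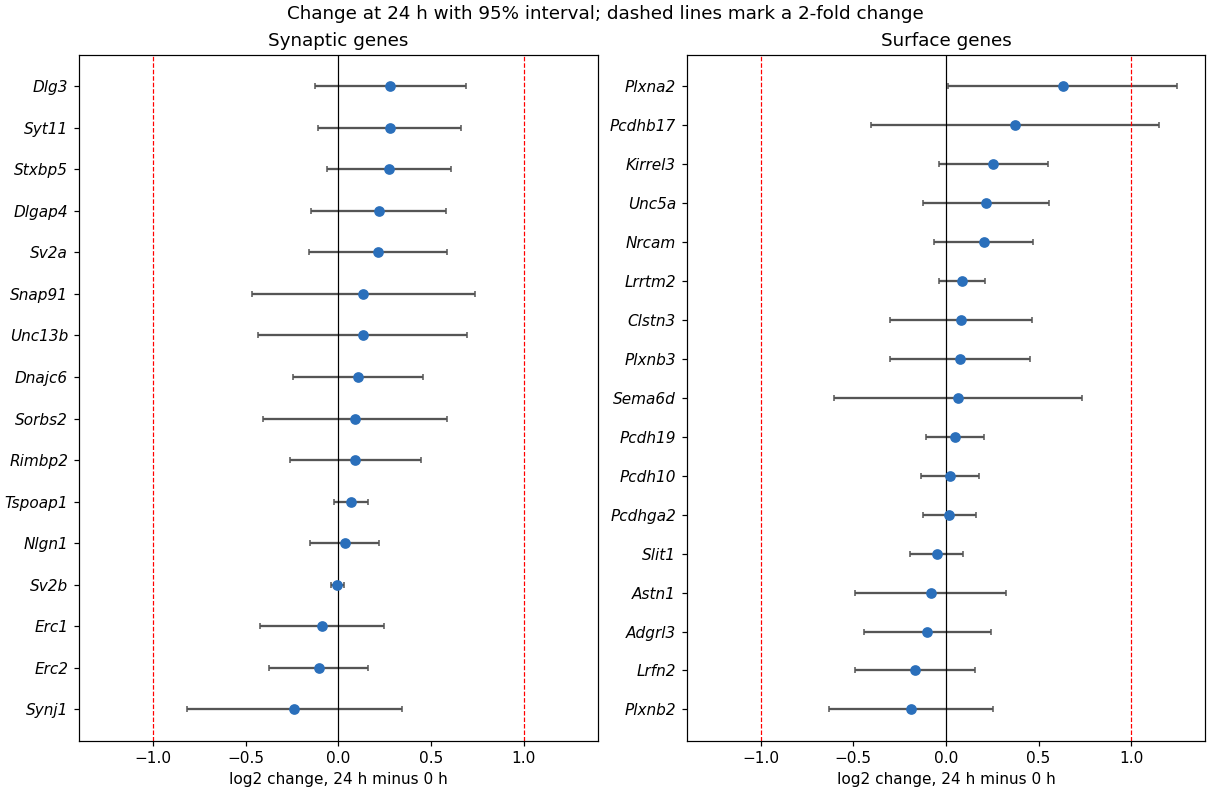
Log2 difference at 24 h from 0 h of each of the 33 members with its 95% interval, from the limma fit over all 38 arrays; dashed lines mark 2-fold. Only the interval of Plxna2 (0.01 to 1.25) excludes 0, before adjustment.

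A regulatory hexamer bound by retinoic acid receptors, AGGTCA, was searched on both strands of the 250 bases before each start site, in promoters from RefSeq (GRCm38.p6). Of the 33 members 26 matched an entry. Astn1, Erc2 and Plxnb2 held the hexamer, 3 of 26 genes (11.5%) against 15.8% of 27025 genes. The direct repeat of that hexamer spaced by 5 bases, which contains it, was in 0 of 26 members and 0.0111% of all genes. The 3 windows are shown because they are those with the hexamer among genes that were followed; capitals mark AGGTCA, or TGACCT where it lies on the opposite strand. In Astn1 (chr1:158362054-158362303, plus strand) it begins 45 bases before the start, in Erc2 (chr14:27622157-27622406, plus strand) 186 bases and in Plxnb2 (chr15:89173952-89174201, minus strand) 205 bases.
Astn1: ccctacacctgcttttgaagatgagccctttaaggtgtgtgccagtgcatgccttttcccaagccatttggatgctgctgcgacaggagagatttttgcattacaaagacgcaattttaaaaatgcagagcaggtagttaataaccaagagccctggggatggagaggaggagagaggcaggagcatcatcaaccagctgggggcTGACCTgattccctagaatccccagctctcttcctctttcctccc
Erc2: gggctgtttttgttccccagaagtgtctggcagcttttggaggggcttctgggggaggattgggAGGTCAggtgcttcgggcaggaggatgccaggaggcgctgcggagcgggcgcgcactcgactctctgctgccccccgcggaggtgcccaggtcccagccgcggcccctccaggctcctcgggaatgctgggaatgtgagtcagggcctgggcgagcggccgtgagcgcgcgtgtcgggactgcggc
Plxnb2: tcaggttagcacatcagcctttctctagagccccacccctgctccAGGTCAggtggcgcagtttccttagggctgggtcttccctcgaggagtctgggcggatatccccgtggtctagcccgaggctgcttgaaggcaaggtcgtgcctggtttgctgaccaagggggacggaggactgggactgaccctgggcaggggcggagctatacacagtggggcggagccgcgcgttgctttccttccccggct
A match describes these letters only. The 3 genes with a match differed from 0 h at 24 h by -0.08 ± 0.20 for Astn1, -0.11 ± 0.13 for Erc2 and -0.19 ± 0.22 for Plxnb2 (log2, SE), with Erc2 at 0.10 and Plxnb2 at -0.07 after median centring, and none passed the test at any time.

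Further genes of synaptic transmission and guidance were read from a list of 137 symbols, of which the array measured 24. Against 0 h 0 of 24 passed at any time, and 12 were higher and 12 lower at 24 h. In late minus early 1 of 24 passed and was higher, against 0.347% of all probes. This was Tenm4, a teneurin that partners latrophilins such as Adgrl3. Its controls averaged -0.60 ± 0.29 (SD, n = 7), with a highest value of -0.03. It lay at the floor, below that mean, on all 1 h and 3 h arrays. The average was -0.02 ± 0.43 (SD, n = 7) at 12 h and -0.20 ± 0.44 (SD, n = 7) at 24 h. Late minus early was 0.68 ± 0.13 (log2, SE; limma adjusted p = 0.00357), while 12 h against 0 h gave 0.57 ± 0.16 (limma adjusted p = 0.393). For 24 h against 0 h the Tenm4 difference was 0.39, also without a call. Phlpp1, Spock2 and Tenm3 came next by F test, with log2 differences at 24 h of -0.28, -0.42 and -0.50 and no call. The neurofilament Nefh, the only neuron marker of 18 on the array, was at or above 1 on all 38 arrays and gave -0.31 ± 0.16 at 24 h. Of 31 markers of glia, vessel and stroma 2 were measured, Pxdn and Phldb1, and both were at or above 1 on most arrays (37 and 28), so the label could be checked against few markers. Of 30 retinoic acid pathway genes 5 were measured and 0 passed.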

How the data were processed

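Per the labels' protocols, Cy5-labelled poly(A) RNA was hybridised to mKIAA oligonucleotide arrays and scanned. The authors' deposited values are linear intensity values for 576 probes. Background correction, scaling and the floor are not given in the sources used here. Deposited intensity was taken to log2 and, since array medians differed by 0.23 (log2, limit 0.1), quantile normalised. One limma fit (3.58.1, R 4.3.3) held all 38 arrays in 6 groups, with 32 residual degrees of freedom and Benjamini-Hochberg adjustment over 576 probes. Probes were named from the platform annotation; 472 of 473 identifiers were found in a RefSeq table. Named genes were all members, described in full for the 6 synaptic and 6 surface genes with the smallest p of the F test, plus the 4 such genes of the further list; Unc13b, Syt11, Stxbp5 and Pcdhb17 were singled out after their values were seen. Members and lists were chosen with earlier results of these data known. Tests were tried on simulated data, where 4.57% of calls were false. Alternatives were scaling, range as covariate, weights, variance model, offset, dim filter, arrays left out and replicate block; leaving out the 5 arrays of low rank correlation was chosen after seeing the data.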

Additional observations from a re-analysis of the deposited data

Results flagged for a closer look

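Single arrays were set against the rest of their group for the 12 genes described in full, in 72 tests of the gap to the nearest array, and 8 stood apart. Chance flags about 1 in 20 groups of freely varying values, a rate that does not hold where most arrays sit at the floor. Among such groups are the Kirrel3 controls (5 of 7), Kirrel3 at 1 h (4 of 5) and Pcdh19 at 1 h (4 of 5). There an array above the floor can easily stand apart. Kirrel3 gave 4 of the 8: control replicate 2 at -0.56, 1 h replicate 1 at -0.075, 6 h replicate 3 at 0.36 and 12 h replicate 5 at -0.60, all above their groups. The last 3 are arrays of low rank correlation. Pcdh19 stood at 0.049 on 1 h replicate 4, and Unc5a at 0.15 on 3 h replicate 5. Tspoap1 was at -0.55 on 24 h replicate 4, and Sema6d at 1.08 on control replicate 1. All values are normalised log2 intensity.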

How the results depend on the processing

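No member was called against 0 h or in the F test under any alternative or with any of the 38 arrays left out. In late minus early, 1 synaptic (Tspoap1, 0.28, adjusted p = 0.0216) and 1 surface gene (Pcdh10, 0.35, adjusted p = 0.0154) passed limma as deposited, 1 surface gene (Pcdh10, 0.29, adjusted p = 0.0300) after median centring, and 2 synaptic genes (Rimbp2, -0.28, and Stxbp5, 0.26, which was -0.08 as deposited) with array quality weights; the cause was not tested. Over all probes this contrast had 2 calls higher and 0 lower after quantile normalisation, 42 and 36 as deposited and 18 and 47 after centring. Tenm4 stayed past the threshold there in all 10 alternatives that kept its probe (adjusted p 9.24e-07 to 0.0460) and with each array left out. The adjusted p ranged from 0.0216 to 0.721 for Tspoap1 and from 0.0350 to 0.878 for Rimbp2 over the alternatives. For 7 members the 24 h direction also turned as deposited and when centred, as given in the results. The surface median at 1 h was -0.04 with weights and without arrays of low rank correlation. Of the 12 genes described in full, differences that changed sign were all uncalled. In late minus early these were Dnajc6 0.016, Kirrel3 0.21 and Pcdh19 0.19 as deposited; Kirrel3 0.14 and Pcdh19 0.12 when centred; Sorbs2 -0.41 and Plxna2 -0.23 with array range as covariate; Astn1 -0.065, Kirrel3 0.000774, Unc5a -0.024 and Pcdh19 0.015 with weights; Sorbs2 -0.000493 with the offset; Sorbs2 -0.058 and Kirrel3 0.041 without the arrays above the floor; and Astn1 -0.025 and Kirrel3 0.061 without arrays of low rank correlation. At 24 h they were Sorbs2 -0.34, Astn1 0.20 and Sema6d -0.073 with the covariate, Rimbp2 -0.015 with weights, and Sema6d -0.0058 without arrays of low rank correlation. Leaving out 1 array at a time gave -0.19 to 0.028 for Astn1 and -0.032 to 0.28 for Sema6d at 24 h, and in late minus early -0.032 to 0.067 for Astn1, -0.082 to 0.030 for Kirrel3, -0.053 to 0.054 for Pcdh19, -0.075 to 0.12 for Sorbs2 and -0.012 to 0.11 for Unc5a.

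Whether the replicate numbers pair the arrays was not settled. Of 87 same-numbered pairs 35 had a correlation of deviations over 0.1. The median correlation was 0.047 for same-numbered pairs and -0.0037 for other pairs. Of 38 arrays 10 correlated best with their own number, and no chance rate was computed for that count. Replicate 1 was the array of low rank correlation at 1 h, 3 h and 24 h. With the replicate block 0 members were called, and Astn1 in late minus early was -0.050. The dim filter left 4 members, all synaptic, so surface genes have no value there. Signal over background limits dim genes: for the 4 genes with every control at the floor, a fall of signal below 0 h cannot be seen. Normalised values of probes at the floor differ slightly between arrays. On that scale Pcdhga2 lay below the lowest control on 3 of 7 arrays at 24 h, which cannot be read as a fall.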
